A study of Mus musculus with 3 samples.

Results

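The fatty acid oxidation genes are 34 genes for the enzymes and carriers that activate fatty acids, bring them into mitochondria and break them down by β-oxidation in mitochondria and peroxisomes. They were chosen by name, with earlier results of these data known. Each was found in the gene table used here, which holds 21887 protein-coding genes on placed chromosomes of mouse. The question was where the DNA-binding zinc finger protein ZFP410 lay relative to these genes in brown preadipocytes and in the same kind of cell after induction of differentiation. CUT&Tag, in which an antibody brings a transposase to chromatin so that DNA near the bound protein is cut and tagged, was done on 3 libraries. The first was made with a ZFP410 antibody from untreated brown preadipocytes, the second with that antibody from cells kept for 3 days in medium for brown adipocyte differentiation (the induced cells), and the third with IgG, which has no chromatin target, from untreated cells. The cells of each library were brown preadipocytes sorted from male C57BL/6 mice by surface markers, and no gene was deleted or added in any group per the labels. For induced cells, IgG was not analysed here. Each group held 1 library, so there is no replicate error and no test between groups, and every interval given covers counting error only.

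The peak lists held 3256 untreated, 7475 induced and 480 IgG peaks, with lowest summits of 3, 4 and 2 fragments. Relative depth, estimated from the files, was 2.01 for induced over untreated and 7.02 for untreated over IgG, and a site of given strength is more easily listed in a deeper library. The levels of marker genes cannot be read from peaks of a DNA-binding protein, and the labelled cell type was not checked for that reason. Fragments at a summit were divided by the genome-wide background of the same library, 0.110, 0.246 and 0.0231 fragments, and this ratio is called enrichment.

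Brown fat burns fatty acids for heat. Acyl-CoA synthetases first join a fatty acid to coenzyme A, carnitine palmitoyltransferases and a carnitine carrier pass it into the mitochondrion, and rounds of dehydrogenation, hydration, oxidation and thiolysis then release acetyl-CoA, while electrons leave through the electron transfer flavoprotein. Peroxisomes run a parallel route for very long and branched chains. These genes are known to respond to PPAR and oestrogen-related receptors in fat.

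In the induced list 9 of the 34 genes had a summit within 1 kb of either end of the gene, called a gene-end peak: Acsl1, Acadm, Acad11, Hadha, Hadhb, Echs1, Acaa2, Eci1 and Acaa1a. That is 26.5% (95% Wilson interval 14.6 to 43.1), where 8.43% of all coding genes had such a peak. In the untreated list 2 of 34 had one, Acadm and Acaa1a, or 5.88% (1.63 to 19.1), beside 3.73% of all coding genes. The IgG list had 0 of 34, beside 0.0366% of all coding genes. That count allows a share of up to 8.82% (3 counts of the total, the limit used wherever one is given for a count of 0). The untreated share thus lay near its background, while the interval of the induced share lay above it. As the genes were chosen with earlier results of these data known, this interval is not a test of an excess. The strongest peaks of the 9 genes were 8 separate peaks, as Hadha and Hadhb shared theirs. With peaks at more than 1 coding gene left out, 5 of 34 genes remained in the induced list (14.7%, beside 5.31% of coding genes) and 2 in the untreated one (5.88%, beside 2.65%). At a −log10 q of at least 5 in the authors' lists the induced list had 5 genes, Acsl1, Acadm, Acad11, Acaa2 and Acaa1a (14.7%, beside 4.42% of coding genes), and the untreated list had Acaa1a (2.94%, beside 1.00%).

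The classes of the pathway had unequal shares. In the induced list 7 of the 17 genes of mitochondrial steps were reached, or 41.2% (21.6 to 64.0). Of these 7, Acad11, Echs1, Hadha and Hadhb had only peaks that other coding genes shared. Activation and carnitine transport had 1 of 11, or 9.09% (1.62 to 37.7), and the peroxisomal steps 1 of 6, or 16.7% (3.01 to 56.4). In the untreated list the numbers were 1 of 17, 0 of 11, which allows up to 27.3%, and 1 of 6. Beside the shares of all coding genes, 8.43% induced and 3.73% untreated, the induced share of activation and carnitine transport (9.09%) and the untreated one of the mitochondrial steps (5.88%) lay near the background, and the intervals of the peroxisomal steps included it. The intervals of the classes overlapped, and the difference between classes was not tested.

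**Figure D1:**
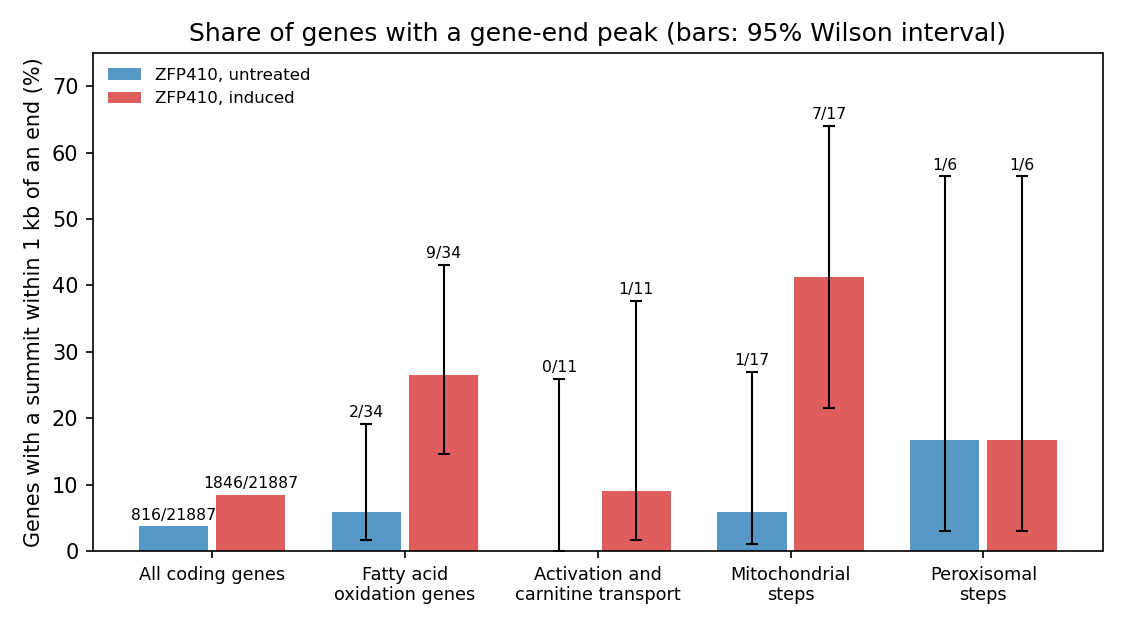
Share of genes (y axis, percent) with a summit within 1 kb of a gene end in the untreated (blue) and induced (red) ZFP410 lists, for all coding genes, the 34 fatty acid oxidation genes and their 3 classes; error bars are 95% Wilson intervals and the fractions are genes. The induced share of mitochondrial step genes, 7 of 17, is the highest bar, and its interval overlaps those of the other 2 classes. Acad11, Echs1, Hadha and Hadhb are counted in it through peaks that other coding genes share.

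Among genes of activation and carnitine transport, Acsl1 had a gene-end peak. It encodes a long-chain acyl-CoA synthetase that feeds fatty acids to oxidation in fat. The gene lies at 46471037 to 46536051 on chromosome 8 (GRCm38.p6, the coordinates of mm10), and its induced peak at 46470570 to 46470923 held 10 summit fragments, an enrichment of 40.6 (95% Poisson interval 19.5 to 74.7). The summit lay 300 bp upstream of the start site. The untreated list had no summit closer to Acsl1 than 15944 bp. A further induced peak with 5 fragments had Acsl1 as its nearest gene at a distance of 76153 bp.

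Cpt1a encodes the carnitine palmitoyltransferase of the outer mitochondrial membrane, the step at which malonyl-CoA holds back fatty acid entry. Its induced peak, at 3323261 to 3323513 on chromosome 19, held 8 fragments, an enrichment of 32.5 (14.0 to 64.0). The summit lay 1085 bp from the end of the gene as the gene table draws it, just outside the window, but 110 bp downstream of the start site listed in the RefSeq promoter table. Cpt1a was therefore the gene with a summit inside it and away from both ends, 1 of 34 in the induced list (2.94%, beside 8.21% of all coding genes). The untreated list had 0 of 34, which allows 8.82%, beside 4.36%, and its summit nearest to Cpt1a lay 627046 bp away. The median length of the members was 27.6 kb, against 17.2 kb for all coding genes. Counted by listed start sites in place of gene ends, 9 of the 28 members that the promoter table holds had a summit within 1 kb in the induced list (32.1%, beside 8.89% of 17492 coding genes) and 2 in the untreated one (7.14%, beside 3.94%). The promoter of Cpt1a is printed below because the induced peak covers 90 of its bases around the start site. It runs from 250 bases before to 50 after the start site, 5′ to 3′ on the gene's strand, at chr19:3323051-3323350 (RefSeq, GRCm38.p6, plus strand), with capitals for its 3 GC boxes (GGGCGG on either strand) and 1 CCAAT box (CCAAT on either strand).
Cpt1a: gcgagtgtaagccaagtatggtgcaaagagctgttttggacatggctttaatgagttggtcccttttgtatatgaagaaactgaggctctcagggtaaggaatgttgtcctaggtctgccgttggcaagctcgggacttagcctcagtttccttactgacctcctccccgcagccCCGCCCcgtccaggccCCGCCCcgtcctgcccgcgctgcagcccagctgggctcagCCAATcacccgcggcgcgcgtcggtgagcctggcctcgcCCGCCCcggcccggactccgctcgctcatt

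The other 9 genes of this class had no ZFP410 peak at an end or inside. Cpt1b encodes the muscle-type palmitoyltransferase that brown fat also uses. Its nearest summits were 101066 bp (untreated) and 101030 bp (induced) away, in overlapping peaks at an end of Sbf1 with 5 fragments in each. For Cpt2, the palmitoyltransferase of the inner membrane, the nearest summits were 100151 and 24192 bp away. For Slc25a20, the carnitine-acylcarnitine carrier, they were 567573 and 12854 bp away. Crat, a carnitine acetyltransferase, had an untreated summit of 3 fragments at 7627 bp that was nearest to Dolpp1. Crot, the peroxisomal carnitine octanoyltransferase, had its nearest summits at 195788 and 110700 bp. Acsl4, a synthetase that prefers arachidonic acid, was the nearest coding gene to an untreated summit of 3 fragments at 35376 bp and to an induced one of 4 at 35591 bp, in peaks that did not overlap. Acsl5 had the strongest site near it, inside Gucy2g at 19437 bp, with 14 untreated and 50 induced fragments at the same base, a ratio of enrichment, induced over untreated, of 1.59 (0.868 to 3.12). Acsl3 and Acsl6 had shared sites 152439 and 87515 bp away in the untreated list.

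Among the mitochondrial dehydrogenases, which open each round of β-oxidation, Acadm and Acad11 had gene-end peaks. Acadm encodes the medium-chain acyl-CoA dehydrogenase and lies at 153922353 to 153944643 on chromosome 3, on the minus strand. It had peaks in both lists at its start, but not in the same place. The untreated peak, at 153944273 to 153944446, held 4 fragments with its summit 279 bp downstream of the start site. The induced peak, at 153944580 to 153944751, held 11 fragments with its summit 26 bp upstream. The summits were 305 bp apart and the peaks did not overlap. Enrichment was 36.4 (9.92 to 93.2) untreated and 44.7 (22.3 to 79.9) induced, a ratio of 1.23 (0.364 to 5.29), so no difference in strength was detectable at this depth. The local background was 1.49 times the genome background in each list. Acad11 encodes a dehydrogenase of longer chains. Its induced peak, at 104063399 to 104063628 on chromosome 9, held 8 fragments, an enrichment of 32.5 (14.0 to 64.0), with its summit 167 bp upstream of the start site. The untreated summit nearest to Acad11 was 73969 bp away. The promoter of Acadm (chr3:153944594-153944893, minus strand) is shown because the induced summit falls inside it, at base 225. It held 0 GC boxes and 0 CCAAT boxes, so no base is in capitals.
Acadm: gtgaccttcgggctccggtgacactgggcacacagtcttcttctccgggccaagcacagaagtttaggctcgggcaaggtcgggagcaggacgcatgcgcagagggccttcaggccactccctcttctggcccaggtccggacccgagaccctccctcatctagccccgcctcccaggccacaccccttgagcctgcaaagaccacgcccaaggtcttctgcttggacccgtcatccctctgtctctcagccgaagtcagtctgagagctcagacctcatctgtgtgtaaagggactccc

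Hadha and Hadhb encode the α and β subunits of the mitochondrial trifunctional protein, which carries out the last 3 steps on long chains. They lie head to head on chromosome 5, with start sites 273 bp apart. A single induced peak, at 30154677 to 30154955, served both with 6 fragments and an enrichment of 24.4 (8.94 to 53.0). Its summit lay 111 bp downstream of the Hadha start and 384 bp upstream of the Hadhb start, on the Hadha side. The nearest untreated summits were 87467 and 57854 bp away.

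Echs1, the short-chain enoyl-CoA hydratase, had an induced peak of 5 fragments at 140115674 to 140115874 on chromosome 7, with its summit 597 bp downstream of the start site. Its enrichment of 20.3 (6.59 to 47.4) was the lowest among the strongest peaks of the 9 genes. The summit lay inside both Echs1 and its neighbour Paox, a polyamine oxidase gene, and could not be given to either. Eci1, an isomerase for unsaturated chains, had 2 induced peaks on chromosome 17. The first, at 24426599 to 24426853, held 4 fragments with its summit 104 bp downstream of the start site, and it also lay within 1 kb of an end of Rnps1, a gene of RNA processing. The second, at 24427344 to 24427576, held 6 fragments with its summit 751 bp downstream and served Eci1 alone.

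Acaa2, the mitochondrial thiolase that releases acetyl-CoA, had an induced peak at 74778864 to 74779381 on chromosome 18, 518 bp wide. It held 11 fragments, an enrichment of 44.7 (22.3 to 79.9), which equals the Acadm value and was exceeded among the members' induced peaks only by that of Acaa1a. Its summit lay 242 bp outside the gene. The untreated list had no summit closer than 212817 bp.

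The other 10 genes of mitochondrial steps had no ZFP410 peak at an end or inside. Acadl, Acads and Acadvl encode the long-chain, short-chain and very-long-chain dehydrogenases. The induced summit nearest to each was 13380 bp from Acadl, 39245 bp from Acads and 5486 bp from Acadvl, and in each case another gene was nearer to it. Acad9, which also helps to build respiratory complex I, and Acad10 had theirs at 261413 and 40187 bp. Hadh, the hydroxyacyl-CoA dehydrogenase of shorter chains, had its nearest at 93093 bp. Decr1, the dienoyl-CoA reductase, was the nearest coding gene to an untreated peak of 3 fragments 3481 bp away (chromosome 4, 15913668 to 15913850). No induced peak overlapped it, where 6.72 fragments (1.39 to 19.6) would be expected at equal enrichment. That interval reached below 4, the lowest number of an induced peak, so a difference was not detectable at this depth. Etfa and Etfb, the subunits of the electron transfer flavoprotein, and Etfdh, the oxidoreductase that takes their electrons, had induced summits at 157993, 130965 and 5661 bp. None of the 3 electron transfer genes thus had a peak within 5 kb in either list.

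The strongest peak of the 34 genes in both ZFP410 lists lay at Acaa1a, which encodes the peroxisomal thiolase that ends each round of peroxisomal β-oxidation. The gene lies at 119341028 to 119350296 on chromosome 9. Its untreated peak, at 119340971 to 119341405, held 17 fragments and ranked 28 of 3256 by the authors' fold. The induced peak, at 119340731 to 119341589, held 31 fragments and ranked 71 of 7475. At both peaks the local background equalled the genome background. Among the coding genes with a gene-end peak, 1.96% of 816 in the untreated list and 2.22% of 1846 in the induced list had at least as many fragments. Enrichment was 155 (90.1 to 248) untreated and 126 (85.5 to 179) induced, and the ratio was 0.814 (0.437 to 1.57). The median ratio over 1253 peaks present in both lists with low local background was 0.818 (quartiles 0.625 and 1.15), so the Acaa1a ratio was near that of the typical shared site, and no difference between untreated and induced cells was detectable there. The summits lay 194 and 138 bp upstream of the start site, 56 bp apart. A second untreated peak of 5 fragments lay 454 bp downstream of the start site, over a local background 2.57 times that of the genome, and did not overlap an induced peak. At equal enrichment the induced library would have held 11.2 fragments there (3.64 to 26.1), an interval that reached below 4, the lowest number of an induced peak. A second induced peak of 6 fragments lay 959 bp from the gene, nearest to Myd88, which encodes an adaptor of innate immune receptors. An induced peak of 9 fragments lay 1967 bp beyond the other end of the gene, with Acaa1a as its nearest gene.

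Acaa1b encodes a second peroxisomal thiolase very similar to Acaa1a and lies at 119148043 to 119157093 on the same chromosome. It had no peak of its own: the summits nearest to it, 184007 bp away in the untreated and 182976 bp in the induced list, were those at Acaa1a and at Myd88. How reads that match more than 1 place were handled is not given in the sources used here, so a loss of reads at sequence that the copies share was not tested. In a global alignment the 300-base promoters had 177 identical bases, 51.8% of the alignment columns with gaps counted. They are shown together because a peak lay over one copy and not over the other. The Acaa1a window (chr9:119341044-119341343, plus strand) holds 3 GC boxes and 4 CCAAT boxes, lies wholly under both peaks, and has the untreated summit at base 57 and the induced one at base 113. The Acaa1b window (chr9:119157044-119157343, minus strand) holds 0 GC boxes and 4 CCAAT boxes, of which 2 overlap. At least 4 CCAAT boxes were found in 1.34% of 17492 promoters.
Acaa1a: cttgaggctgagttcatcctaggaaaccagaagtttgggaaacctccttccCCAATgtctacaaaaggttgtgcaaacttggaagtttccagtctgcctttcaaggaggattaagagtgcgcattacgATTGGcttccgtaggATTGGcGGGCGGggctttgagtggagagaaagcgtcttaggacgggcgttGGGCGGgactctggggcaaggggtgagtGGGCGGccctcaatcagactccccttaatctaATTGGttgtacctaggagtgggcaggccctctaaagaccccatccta
Acaa1b: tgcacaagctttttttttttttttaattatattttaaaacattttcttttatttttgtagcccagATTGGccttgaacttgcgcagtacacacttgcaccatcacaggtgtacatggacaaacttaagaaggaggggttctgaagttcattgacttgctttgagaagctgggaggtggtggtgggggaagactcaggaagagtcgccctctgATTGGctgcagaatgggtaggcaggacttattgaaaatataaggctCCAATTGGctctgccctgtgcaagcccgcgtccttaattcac

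The other 4 peroxisomal genes had no ZFP410 peak at an end or inside. Eci2, an enoyl-CoA isomerase, was the nearest coding gene to 3 induced peaks of 6, 9 and 4 fragments at 11490, 18968 and 43543 bp. The untreated list had none within 262465 bp of it. Decr2, the peroxisomal dienoyl-CoA reductase, had a shared site at 7481 bp (untreated) and 7635 bp (induced) that was nearer to Nme4, with 3 and 5 fragments. Hsd17b4, a bifunctional enzyme, had a shared site at 31433 and 31505 bp that was nearer to Tnfaip8, with 5 and 14 fragments. Ehhadh, the other bifunctional enzyme, had its nearest summits at 556644 and 34650 bp.

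The peaks at fatty acid oxidation genes were otherwise of ordinary strength. The strongest gene-end peak of the 9 genes held a median of 8 fragments in the induced list (range 5 to 31), against 7 for all 1846 coding genes with one. At members with no untreated peak, the 8 induced peaks at an end or inside were weak for the untreated depth. At equal enrichment the untreated library would have held 4.91 fragments at Acaa2 (2.45 to 8.78), 4.46 at Acsl1 (2.14 to 8.21), 3.57 at Cpt1a and at Acad11 (1.54 to 7.04), 2.68 at Hadha with Hadhb and at the stronger Eci1 peak (0.983 to 5.83), 2.23 at Echs1 (0.725 to 5.21) and 1.79 at the weaker Eci1 peak (0.486 to 4.57). Each interval reached below 3, the lowest number of an untreated peak, so a difference from induced cells was not detectable at this depth for any of them. The same held for the induced peaks of Acadm, with 4.91 expected (2.45 to 8.78), and for the second one of Acaa1a, with 2.68 (0.983 to 5.83), which overlapped no untreated peak. With induced peaks limited to summits of at least 7 fragments, which is 3 scaled up by the ratio of the genome backgrounds of 2.24 and was chosen after seeing the data, 5 of 34 genes were left (14.7%, 6.45 to 30.1), beside 5.22% of coding genes. These were again Acsl1, Acadm, Acad11, Acaa2 and Acaa1a. The untreated list had 2, and 1 library a group gives no test of 5 against 2.

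**Figure D2:**
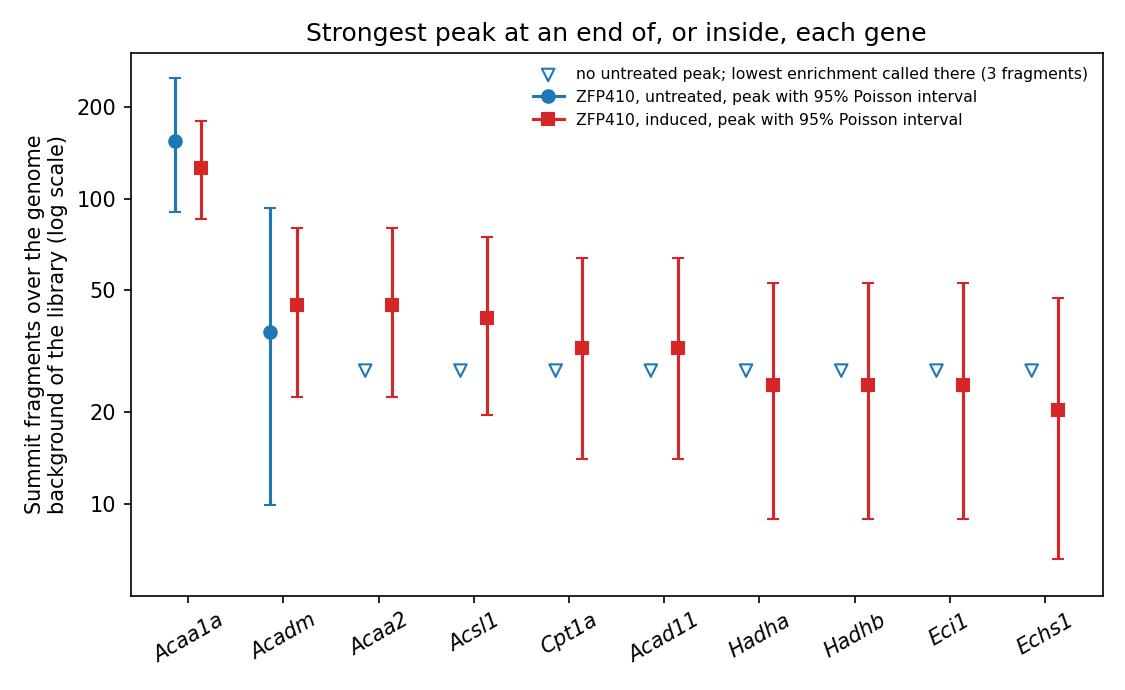
Summit fragments over the genome background of the library (log axis) for the strongest peak at an end of, or inside, each of 10 genes, untreated in blue and induced in red, with 95% Poisson intervals; an open triangle marks a gene with no untreated peak at the lowest enrichment called there, 27.3. Acaa1a stands at 155 and 126, and each induced interval from Acaa2 to Echs1 includes the level of the triangle.

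The summits gathered at gene starts. All 8 members with an induced gene-end peak and a listed start site had the summit within 1 kb of that site, as did 1377 of 1520 coding genes (90.6%). In the untreated list it was 2 of 2, beside 599 of 677 (88.5%). The main summit lay upstream at Acsl1, Acadm, Acad11, Hadhb and Acaa1a, and downstream at Cpt1a, Hadha, Echs1 and Eci1. The promoters of the 9 members with an induced start-site summit had a median GC content of 61.3% (53.3 to 74.0), against 60.7% for the 19 other members with an entry, 62.0% for 1555 coding genes with an induced start-site summit and 56.3% for 17492 promoters. The lowest and the highest GC content among the 28 promoters both belonged to members without such a summit, Acaa1b and Acad10, so the range of those with a summit lay within the range of those without.

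**Figure D3:**
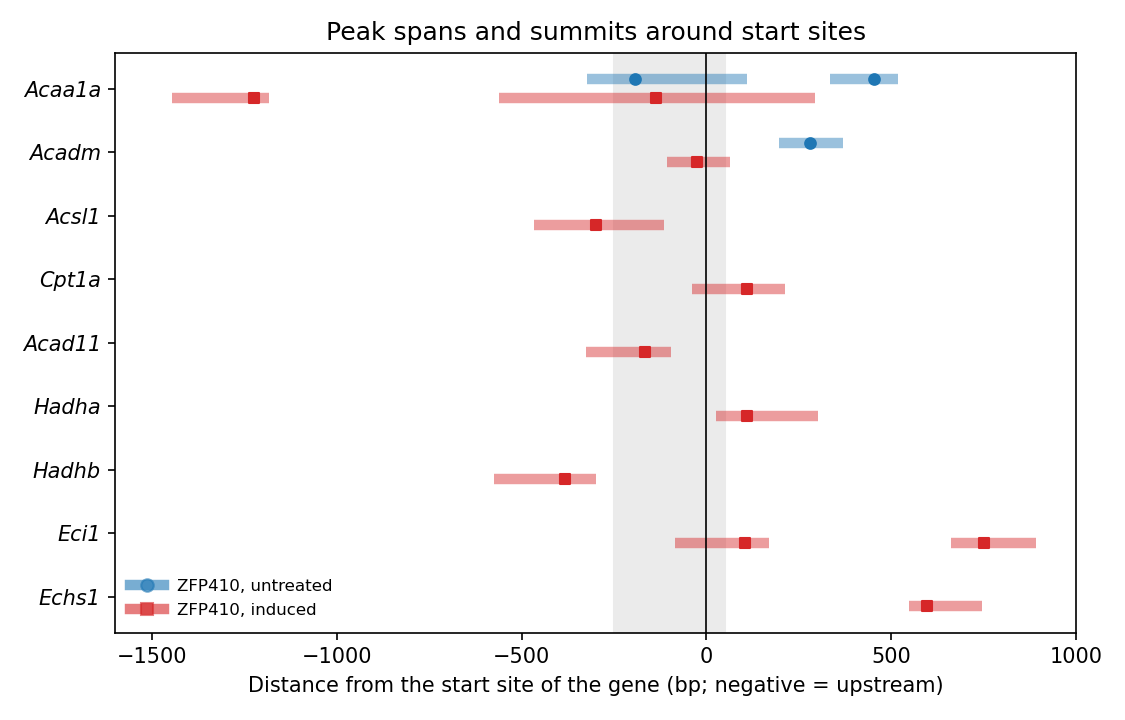
Peak spans (bars) and summits (points) relative to the start site of each of 9 genes, in bp with upstream to the left, untreated in blue and induced in red; the grey band is the 300-base promoter window. The Acaa1a peaks of both lists overlap upstream of the start, while the Acadm summits lie on different sides of it.

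Motifs were searched on both strands of these 300-base windows. The ZFP410 motif, CATCCC followed directly by ATAATA, was in 0 of the 28 members' promoters and in 3 of 17492 (0.0172%). The peroxisome proliferator response element, 2 copies of AGGTCA with 1 base between them, was in 0 of 28 and in 9 of 17492 (0.0515%). The element of oestrogen-related receptors, TCAAGGTCA, was in the promoter of Acsl6, which had no ZFP410 peak, and in 0.332% of all. The cAMP response element TGACGTCA was in 0 of 28 and in 2.33% of all. GC boxes (GGGCGG) were in 8 of the 9 promoters with an induced start-site summit (88.9%) and in 14 of the 19 others (73.7%), beside 69.6% of coding genes with such a summit and 46.3% of all. CCAAT boxes were in 3 of 9 (33.3%) and 11 of 19 (57.9%), beside 45.1% and 39.2%. The oestrogen-related receptor element and the peroxisome proliferator response element share the letters AGGTCA. Each motif was matched letter for letter, and the shares describe these windows alone.

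By distance, the members were the nearest coding gene to 5 untreated, 16 induced and 1 IgG peaks, and the number of members so reached was 4 (11.8%, beside 11.5% of coding genes), 11 (32.4%, beside 22.1%) and 1 (2.94%, beside 1.82%). The 4 untreated genes were Acadm, Acaa1a, Decr1 and Acsl4. The nearest-gene shares lay closer to their background than the gene-end share of the induced list did. Of the 24 members with no ZFP410 peak at an end or inside, the nearest summit was 3.48 to 2860 kb away in the untreated list (median 142 kb) and 5.49 to 261 kb in the induced list (median 39.7 kb). A list with more peaks, here 7475 induced against 3256 untreated, tends to give shorter distances at any gene. Distances for all coding genes are not given here, so the medians are no comparison between groups. For 7 of the 24 the nearest peaks of the lists overlapped: Acsl3, Acsl5, Acsl6, Cpt1b, Acads, Hsd17b4 and Decr2. In each of these 7 cases another coding gene was nearer to the site. No share over all coding genes is given beside this count of 7, so it is a description only.

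**Figure D4:**
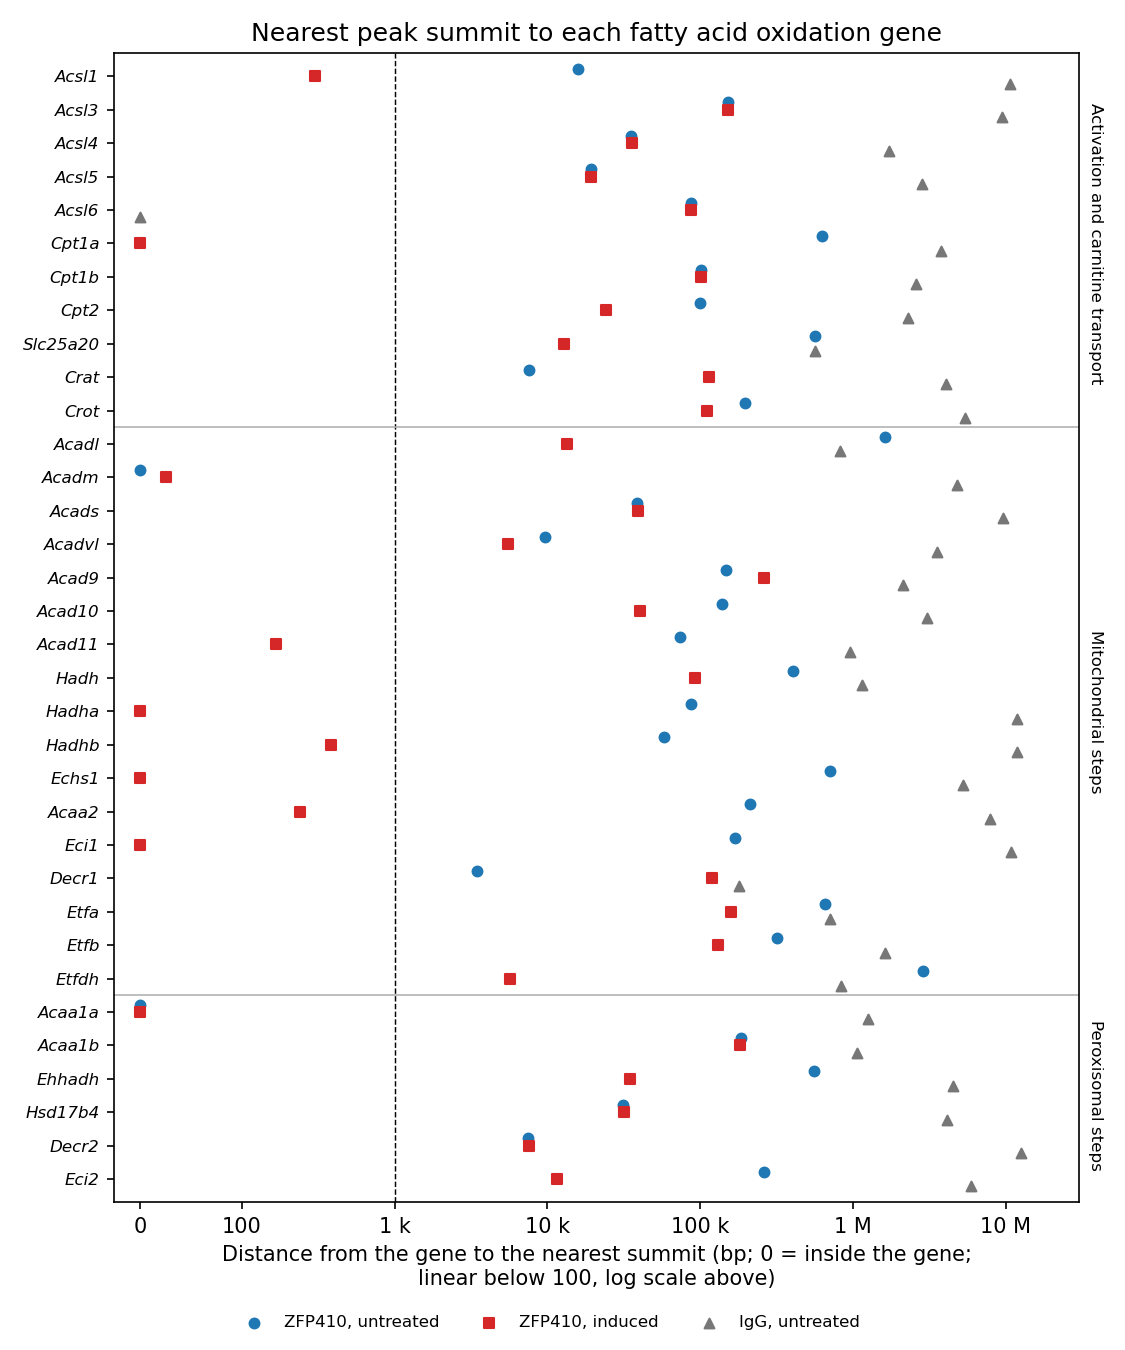
Distance in bp from each of the 34 genes to the nearest summit in the untreated (blue), induced (red) and IgG (grey) lists; the axis is linear below 100 bp and logarithmic above, 0 means inside the gene, and the dashed line marks 1 kb. Red squares left of the line mark the genes reached in the induced list, and the IgG triangles lie far to the right except at Acsl6.

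IgG gave 1 peak at these genes, inside Acsl6, a synthetase gene known mainly from brain. It lay at 54326523 to 54326963 on chromosome 11 with 12 fragments over a local background 31.2 times that of the genome, 11963 bp from the nearest start site. That makes 1 of 34 genes with an IgG summit inside (2.94%, beside 0.493% of coding genes), and no ZFP410 peak overlapped it. The IgG summit nearest to any of the 10 genes with a ZFP410 peak was 959 kb away, at Acad11. The IgG library was shallow: the untreated Acaa1a peak would hold 3.57 fragments there at equal enrichment (2.08 to 5.71), or 2.42 by depth, and the untreated Acadm peak 0.839 (0.229 to 2.15), where 2 was the lowest number called. The absence of IgG peaks at the weaker sites was therefore not informative at this depth.

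Of 45 other genes of fatty acid use, 6 had an induced gene-end peak (13.3%, beside the 8.43% of coding genes). In the untreated list 0 of the 45 had one, beside 3.73% of coding genes. Of the 9 genes of peroxisomal entry and first oxidation there were 2, Abcd3, an acyl-CoA transporter of the peroxisome, with 6 fragments, and the acyl-CoA oxidase gene Acox3 with 4. Of 4 propionyl-CoA genes there were 2, Mcee with 8 and Mmut with 5. Of 6 branched and short chain genes there was 1, Gcdh, with 5 fragments. Of 10 genes for transcription factors and coactivators there was 1, Esrra, an oestrogen-related receptor gene, with 6 fragments. Some of these peaks also lay within 1 kb of an end of another coding gene. Mcee shared its peak with Mphosph10, Mmut with Cenpq and Esrra with Catsperz. Fatty acid entry, malonyl-CoA control and ketone body genes had 0 of 7, 0 of 5 and 0 of 4. At a −log10 q of at least 5, 1 of the 45 was left, Mcee (2.22%, below the 4.42% of coding genes). Summits inside the gene, away from its ends, were found in 8 of the 45 (17.8%, beside the 8.21% of coding genes): Cd36, which encodes a fatty acid receptor and carrier, Fabp4, Acaca, Acox3, Pcca, Ppard, Rxra and Ppargc1a. In the untreated list it was Pcca alone, and 1 of the 34 members, Cpt1a, had such a summit in the induced list. The gene-end peaks of the 6 related genes held 4 to 8 fragments, as did the peaks of Cpt1a, Acad11, Hadha with Hadhb, Echs1 and Eci1. Acaa1a and the members at 10 or 11 fragments stood above them. The induced peaks inside related genes held 5 to 13 fragments. Those with 13, at Acox3 and Ppard, stood above every member peak but that of Acaa1a.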

How the data were processed

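CUT&Tag peak lists of 3 libraries were used, 1 per group, with groups taken from the labels. The submitters' processing notes name mm10, Bowtie2 2.2.6, MACS2 2.1.1 and Picard. For read filters and the caller's control, no statement is given in the sources used here. Each deposited list gives per peak a score, the fold over local background (a ratio), the −log10 of p and q, and the summit offset; peak names carry a q of 0.1, per the file headers and rows. The authors' fold and −log10 values were used within a list only.

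Whole summit fragments and the local background were solved from fold and −log10 p (Poisson tail, gap under 0.001) for 3255 of 3256, 7474 of 7475 and 480 of 480 peaks, in a step tested on simulated data. The lowest local background was taken as the genome background, and relative depth came from the grid of local backgrounds. Gene positions and 300-base promoters came from RefSeq tables of GRCm38.p6; exons, introns and UTRs were not analysed here. A summit was assigned within 1 kb of a gene end, inside a gene, or to the nearest coding gene. Peaks overlapped when they shared 1 bp. Where an interval or limit is given, shares above 0 have 95% Wilson intervals and a share of 0 has 3 counts of the total. Fragments have exact Poisson intervals and ratios exact binomial ones, with Python 3.11.15 and SciPy 1.17.1. PCR copies are not independent molecules, so intervals and limits cover counting error only. Named genes were each member with a peak at an end, inside or within 50 kb as nearest gene; other members were named with their distances, and other genes where they shared a member's peak or were related genes with a gene-end peak. Neighbouring genes at other sites, and related genes with a summit inside, were named after their values were seen. The members, their classes, lists and motifs were chosen with earlier results of these data known. Member counts are read against the share among all coding genes.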

Additional observations from a re-analysis of the deposited data

How the results depend on the processing

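No paired analysis was possible because each group held 1 library. Of 43 alternatives, 34 stayed near the main value, within 1.5 times for a count of members and inside the interval for the Acaa1a ratio. The 34 include all IgG alternatives, with counts of 0 or 1. Stricter filters on a count of 0 are also among them and could not move it. All alternatives that moved belonged to the ZFP410 lists. With peaks limited to a −log10 q of 5 or more, the untreated gene-end count went from 2 to 1, beside 1.00% of all coding genes. The induced gene-end count went from 9 to 5, beside 4.42%. Under that limit members nearest to a peak went from 4 to 1 and from 11 to 7. With peaks at more than 1 coding gene left out, the induced share went from 26.5% to 14.7%. A fold of at least 5 left 1 untreated gene, Acaa1a, beside 1.94% of all coding genes. With all genes of the table as candidates, the untreated list had 2 nearest members in place of 4. For the changed counts of nearest members, the share of all coding genes is not given here. Where any base of a peak could lie in the window, Cpt1a counted as a gene-end gene and 0 members had a peak inside in the induced list. Induced summits of at least 7 fragments, a setting added after seeing the data, left 5 genes. The induced gene-end count was 8 with a 500 bp window, 10 with 2 kb and 10 with 5 kb, while the share of all coding genes went from 7.16% to 9.81% and 12.8%. The Acaa1a ratio was 0.908 by relative depth and 0.995 against the median of shared peaks. Depth limits what the untreated and IgG absences show, and 1 library per group leaves the spread between cultures unknown.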
